A study of Mus musculus with 9 samples.

Results

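The direct comparison of an allergen with an irritant is described here: 3 arrays from mouse ear skin treated with DNFB were set against 3 arrays from ear skin treated with BAC, without the vehicle as reference. These are 6 of the 9 arrays of the series, chosen by the treatment in the sample labels, and the comparison covers the 14122 named genes that passed a filter on low signal. C57BL/6 mice had DNFB or BAC applied to the skin of one ear for 6 h, and the other 3 arrays came from ears given acetone/olive oil, the vehicle, for the same time. DNFB and BAC were applied to right ears and vehicle to left ears, per the labels, so no right ear with vehicle was measured and side is shared by both groups compared here. The sources used here give no dose, age or sex, and no sensitising application before the measured one is named in the labels. The labels number the arrays of a group 1 to 3 without saying that they come from separate animals, so the spread behind the p-values is that of these samples and may be technical in origin. RNA came from whole ear skin, and a lower signal from fewer cells of a type cannot be told apart from less RNA per cell. The tissue label matched the markers: the epidermal keratin Krt5 ranged from 5231 to 8957 over the 9 arrays, and the cornified envelope gene Lor from 16489 to 21979, on the linear MAS5 signal scale on which the median probe set of an array lies between 71.2 and 86.3.

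DNFB (2,4-dinitrofluorobenzene) is a hapten, a small electrophile that binds covalently to amino and thiol groups of proteins and consumes glutathione. BAC (benzalkonium chloride) is a mixture of quaternary ammonium compounds, a cationic surfactant that disturbs membranes and irritates skin without acting as a typical sensitiser. Electrophiles modify cysteines of KEAP1, which releases the transcription factor NRF2 to act on genes of glutathione synthesis, quinone reduction and haem breakdown, and damaged proteins release HSF1, which acts on chaperone genes. Signals from membrane injury, cytokines and Toll-like receptors release NF-kB from its inhibitors, and NF-kB acts on genes of cytokines, chemokines and adhesion molecules and on its own inhibitors Nfkbia and Tnfaip3.

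The arrays were of like quality, with 1 exception in a degradation measure. Log2 signals of the 9 pairs of a DNFB with a BAC array correlated at 0.927 to 0.94, against 0.935 to 0.947 within DNFB and 0.941 to 0.947 within BAC. No 2 arrays held identical values. For Gapdh, the 3' control probe set divided by the 5' one was 1.36 in DNFB replicate 2 and lay between 0.841 and 0.943 in the other 8 arrays.

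Of the 14122 genes, 961 (6.8%) passed the limma test at a Benjamini-Hochberg adjusted p under 0.05. Signal was higher in DNFB for 444 of them (3.14% of tested genes) and higher in BAC for 517 (3.66%). The large differences lay mostly on the BAC side: 51 genes (0.361%) were at least 2-fold higher in DNFB and 161 (1.14%) at least 2-fold higher in BAC, on the log2(signal + 16) scale used throughout, and 4 and 15 genes were at least 4-fold apart. The median log2 difference, DNFB minus BAC, was 0.029 over all tested genes, and 5% of genes lay below -0.69 and 5% above 0.59. The count rested on single arrays: without BAC replicate 2, 513 genes passed (210 higher in DNFB, 303 in BAC), without DNFB replicate 3, 571 passed (178 higher in DNFB), and without DNFB replicate 2, 608 passed (229 higher in DNFB). Without the intensity trend in the variance estimate, 402 passed, and of the genes described with values here Bcl3, Cebpb, Cma1, Cxcl1, Cxcl2, Ddit3, Fkbp4, Gadd45a, Herpud1, Krt14, Lcn2, Mafk, Mt1, Myd88, Selplg, Sesn1, Sox9, Tpi1, Tpsab1, Txn1 and Vwf no longer did (adjusted p from 0.0512 for Selplg to 0.148 for Cxcl1). At an unadjusted p under 0.05, 12% of all tested genes were higher in DNFB and 9.64% in BAC, which is the background of the unadjusted counts given for single lists. The vehicle mean lay between the DNFB and BAC means for 254 of the 444 genes higher in DNFB, below both for 116 and above both for 74. For the 517 genes higher in BAC it lay between them for 203, below both for 197 and above both for 117.

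**Figure D1:**
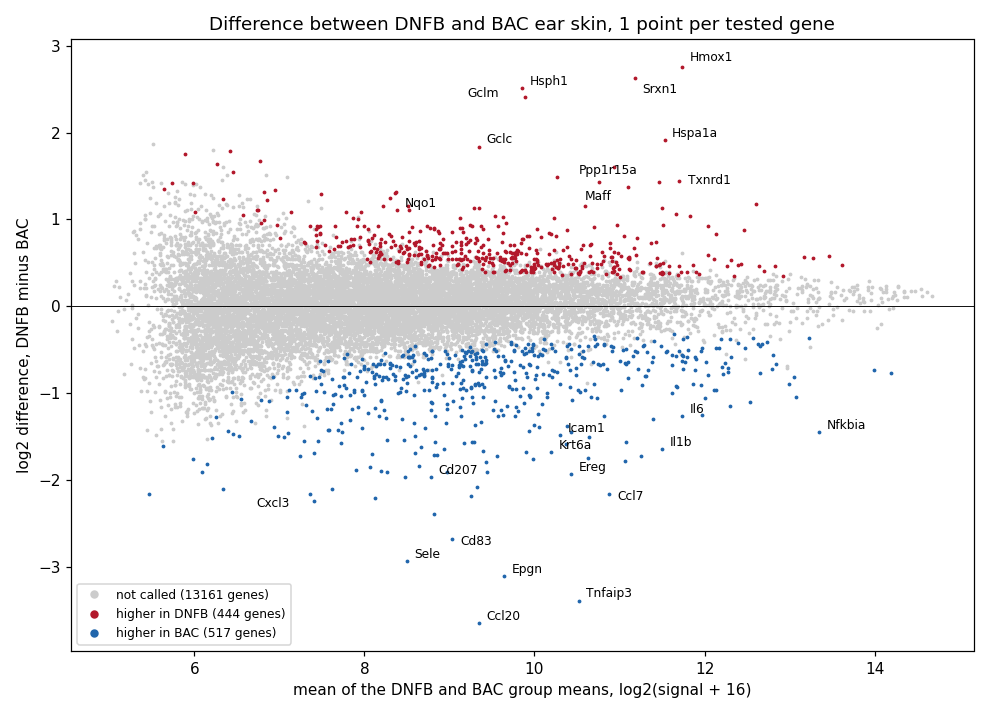
Log2 difference, DNFB minus BAC (vertical axis, log2 units), against the mean level of a gene (horizontal axis, log2(signal + 16)), with 1 point per tested gene. Red points mark the 444 genes higher in DNFB and blue points the 517 genes higher in BAC by limma at an adjusted p under 0.05, and labels mark genes described in the text: Hmox1 (2.76), Srxn1 (2.63) and Hsph1 (2.51) at the top, Ccl20 (-3.65), Tnfaip3 (-3.39) and Epgn (-3.11) at the bottom.

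Genes of the antioxidant and glutathione system held the largest differences in favour of DNFB. Of 33 tested NRF2 targets and glutathione genes, 18 were higher in DNFB, 1 was higher in BAC and 14 did not pass, against 3.14% and 3.66% of all tested genes. The median log2 difference of the 33 was 0.67, beside 0.029 over all genes. Hmox1, the enzyme that breaks haem down to biliverdin, had signals of 11293, 8075 and 7530 in the DNFB arrays and of 1332, 1374 and 1165 in the BAC arrays. Its mean was 6.95-fold higher in DNFB, a log2 difference of 2.76 ± 0.16 (SE, n = 3 and 3, adjusted p = 1.6e-07). The BAC arrays lay within the range of the vehicle arrays (1119, 1673 and 1260), and the groups of DNFB and BAC did not overlap. Srxn1, which reduces over-oxidised peroxiredoxins, gave 7916, 5024 and 4796 in DNFB and 840, 884 and 1035 in BAC, a log2 difference of 2.63 ± 0.21 (adjusted p = 1.56e-06). Here the BAC arrays all lay above the vehicle arrays (462, 744 and 401).

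Both subunits of glutamate-cysteine ligase, the rate-limiting enzyme of glutathione synthesis, were higher in DNFB than in BAC, and their BAC arrays lay below every vehicle array. The regulatory subunit Gclm had 2744, 1750 and 2128 in DNFB, 429, 330 and 438 in BAC, and 604, 547 and 600 in vehicle. The catalytic subunit Gclc had 1295, 1072 and 1311 in DNFB, 347, 329 and 312 in BAC, and 618, 525 and 472 in vehicle. The log2 differences between DNFB and BAC were 2.41 ± 0.16 for Gclm (adjusted p = 4.24e-07, and 1.6 with the mean over its probe sets) and 1.84 ± 0.13 for Gclc (adjusted p = 8.61e-07). The quinone reductase Nqo1 showed the same order of means, with BAC and vehicle overlapping, at 554, 475 and 411 in DNFB, 207, 226 and 204 in BAC, and 308, 307 and 219 in vehicle, and a log2 difference of 1.11 ± 0.17 (adjusted p = 0.000683). Differences between vehicle and BAC were not tested here.

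The promoter of Gclm is shown because the gene had one of the largest differences and its promoter holds the letters of the antioxidant response element core, TGACNNNGC, on either strand. The run is 150 bases long, from the gene's RefSeq entry on GRCm38.p6, and capitals mark the match, which lies on the opposite strand:
Gclm, chr3:122245407-122245556, plus strand: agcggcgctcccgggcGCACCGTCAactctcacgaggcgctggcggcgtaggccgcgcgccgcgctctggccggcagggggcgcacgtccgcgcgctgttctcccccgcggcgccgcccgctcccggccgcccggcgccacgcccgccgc
In the 250 bases before the start, these letters occurred in 6 of the 27 group members with a RefSeq promoter entry (22.2%), in 2 of 15 members that passed the test (13.3%), in 13.7% of tested genes and in 11.5% of 27025 promoters. The share among members that passed was thus near that of tested genes, and the promoters of Srxn1 and Nqo1 held no match to these exact letters. The Srxn1 bases do hold TGAGTCAGC, with G in place of the C of TGAC, a spelling that was not searched. The match is a description of the sequence.

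Thioredoxin reductase Txnrd1, which regenerates reduced thioredoxin, had 6212, 4899 and 5404 in DNFB and 1807, 2034 and 2185 in BAC, a log2 difference of 1.44 ± 0.13 (adjusted p = 5.46e-06). The gene's other probe sets differed less, by 0.79 (adjusted p = 0.0662) and 0.13 (adjusted p = 0.842), and the mean over them gave 0.79 (adjusted p = 0.0255). Smaller differences were found for glutathione S-transferase Gstp1 (1.04 ± 0.09, adjusted p = 5.87e-06), biliverdin reductase Blvrb (1.03 ± 0.13), carbonyl reductase Cbr3 (0.96 ± 0.13), the pentose phosphate enzyme Pgd (0.91 ± 0.12) and the autophagy receptor Sqstm1 (0.88 ± 0.1). For Sqstm1 the mean over its probe sets did not pass (0.53, adjusted p = 0.0515). Osgin1, an oxidative stress-induced growth inhibitor, differed by 1.13 ± 0.21 (adjusted p = 0.00407), with BAC arrays of 419, 419 and 430 that all exceeded the vehicle arrays of 92.7, 151 and 110. Trim16 was the member higher in BAC, at 930, 841 and 744 against 559, 452 and 452 in DNFB, a log2 difference of -0.76 ± 0.15 (adjusted p = 0.00482). The cystine transporter Slc7a11 differed by 0.67 and glutathione reductase Gsr by -0.23, and neither passed (adjusted p = 0.327 for Slc7a11). Over the alternatives, arrays left out included, 13 to 19 members were higher in DNFB, and 16 were without DNFB replicate 2, the array with the high Gapdh ratio.

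Several cytosolic chaperone genes were higher in DNFB as well. Of 24 tested heat shock chaperones, 12 were higher in DNFB and 0 in BAC by limma (16 and 0 at an unadjusted p under 0.05), with a median log2 difference of 0.47. Among the 12 that did not pass, differences ranged from -0.21 upwards. Of the 24, 16 had DNFB arrays all above the BAC arrays, against 13.7% of all tested genes, and 0 had BAC arrays all above the DNFB arrays, against 11.4%. Hsph1 (HSP105), a nucleotide exchange factor for HSP70, had 2476, 1945 and 2184 in DNFB and 281, 478 and 382 in BAC, a 5.79-fold higher mean and a log2 difference of 2.51 ± 0.17 (adjusted p = 4.24e-07). Hspa1a, an inducible HSP70, had 5352, 5339 and 6615 in DNFB and 1401, 1350 and 1810 in BAC, a log2 difference of 1.92 ± 0.13 (adjusted p = 4.24e-07). The BAC arrays exceeded the vehicle arrays for both genes, which lay between 219 and 274 for Hsph1 and between 973 and 1126 for Hspa1a. Hspa1b differed by 1.18 ± 0.12 (adjusted p = 2.62e-05), but it is nearly identical to Hspa1a and its probe set is of a kind that can hybridise to related transcripts, so the share of each copy is uncertain.

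The promoters of Hsph1 and Hspa1a are shown because these genes had the largest differences of the group and both hold a heat shock element pair, GAANNTTC or TTCNNGAA, searched on both strands and marked by capitals (RefSeq, GRCm38.p6):
Hsph1, chr5:149636337-149636486, minus strand: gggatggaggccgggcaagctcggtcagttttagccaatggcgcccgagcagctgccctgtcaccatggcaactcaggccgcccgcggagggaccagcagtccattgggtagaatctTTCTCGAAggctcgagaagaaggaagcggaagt
Hspa1a, chr17:34972157-34972306, minus strand: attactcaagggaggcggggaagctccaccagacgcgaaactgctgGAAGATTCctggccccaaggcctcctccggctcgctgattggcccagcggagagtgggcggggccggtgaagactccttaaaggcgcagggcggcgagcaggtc
Such a pair occurred in the 250 bases before the start of 10 of 21 chaperone genes with a promoter entry (47.6%), of 6 of the 10 that passed the test (60%) and of 14.5% of all promoters. Among all genes higher in DNFB the share was 11.2%, and among all tested genes 12.6%.

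The chaperone partners varied in size of difference. The HSP40 co-chaperone Dnajb1 differed by 0.93 ± 0.11 (adjusted p = 0.0001), the inducible HSP90 gene Hsp90aa1 by 0.83 ± 0.1 (adjusted p = 0.000105), and the HSP70 co-factor Bag3 by 0.74 ± 0.13 (adjusted p = 0.00248). The mean over the probe sets of Hsp90aa1 did not pass (0.48, adjusted p = 0.0589). The Dnajb1 signals were 6257, 5326 and 5959 in DNFB, 3100, 2713 and 3374 in BAC, and 2035, 1850 and 1663 in vehicle, so that BAC lay between the other groups. Hspb1, a small heat shock protein gene, differed by -0.16 and did not pass. Over the alternatives, 7 (without the intensity trend) to 13 of the 24 were higher in DNFB, and 9 were without DNFB replicate 2.

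Genes of the endoplasmic reticulum and the integrated stress response were divided. Of 22 ER chaperones, 4 were higher in DNFB and 0 in BAC (10 and 0 at an unadjusted p under 0.05), with 2 higher in DNFB once BAC replicate 1 was left out and 1 without the intensity trend. Dnajb9, an HSP70 co-chaperone of the ER, had 5142, 4705 and 4142 in DNFB and 2508, 2081 and 2093 in BAC, a log2 difference of 1.06 ± 0.12 (adjusted p = 5e-05). The ER-stress component gene Herpud1 differed by 0.58 (adjusted p = 0.0108), but not with the mean over its probe sets (0.46, adjusted p = 0.0561). Of 23 genes of the integrated stress response, 2 were higher in DNFB and 3 in BAC (1 without the intensity trend). Ppp1r15a (GADD34), which directs the phosphatase that ends the response, had 4245, 4486 and 5149 in DNFB and 1882, 1431 and 1823 in BAC, a log2 difference of 1.43 ± 0.14 (adjusted p = 1.8e-05). Ddit3 (CHOP) differed by 0.84 ± 0.2 (adjusted p = 0.0183), and its call ended without DNFB replicate 1 (0.0531), DNFB replicate 2 (0.0615) or BAC replicate 1 (0.0652) and with the mean over its probe sets (0.59, adjusted p = 0.411). The transcription factor Atf3 had 5366, 5618 and 5614 in DNFB and 6733, 6005 and 7215 in BAC, above vehicle arrays of 710, 459 and 582, with a difference between the chemicals of -0.26 ± 0.13 that did not pass (adjusted p = 0.276). On the BAC side, the mTOR inhibitor gene Ddit4 differed by -0.90 (adjusted p = 0.00106) and Cebpb, a transcription factor of inflammation, by -0.59 (adjusted p = 0.00735), though the mean over the probe sets of Cebpb did not pass (-0.5, adjusted p = 0.109).

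Further genes higher in DNFB came from different lists or from none. Maff and Mafk were counted with the AP-1 and immediate early genes, and Cdt1 with the replication genes. Sertad1, a transcriptional co-regulator, had 3337, 3184 and 3603 in DNFB and 1131, 1021 and 1154 in BAC, a log2 difference of 1.60 ± 0.12 (adjusted p = 9.93e-07). Procr, the endothelial protein C receptor, had 2606, 1746 and 1881 against 733, 768 and 657, a log2 difference of 1.49 ± 0.16 (adjusted p = 2.81e-05). The small MAF protein Maff, which can pair with NRF2, had 3967, 3092 and 3491 against 1434, 1207 and 1408 (1.37 ± 0.12, adjusted p = 5.87e-06), and its relative Mafk differed by 0.71 ± 0.14 (adjusted p = 0.00643). All 3 BAC arrays of Procr, Maff and Mafk exceeded the vehicle arrays, whereas DNFB exceeded both. The DNA replication licensing factor Cdt1 differed by 1.31 ± 0.16, the TFIID subunit gene Taf7 by 1.32 ± 0.17 and the chromatin protein gene Phf13 by 1.25 ± 0.2. With the mean over its probe sets, Cdt1 differed by 0.77 (adjusted p = 0.0337) and Taf7 by 0.69 (adjusted p = 0.0347).

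**Figure D2:**
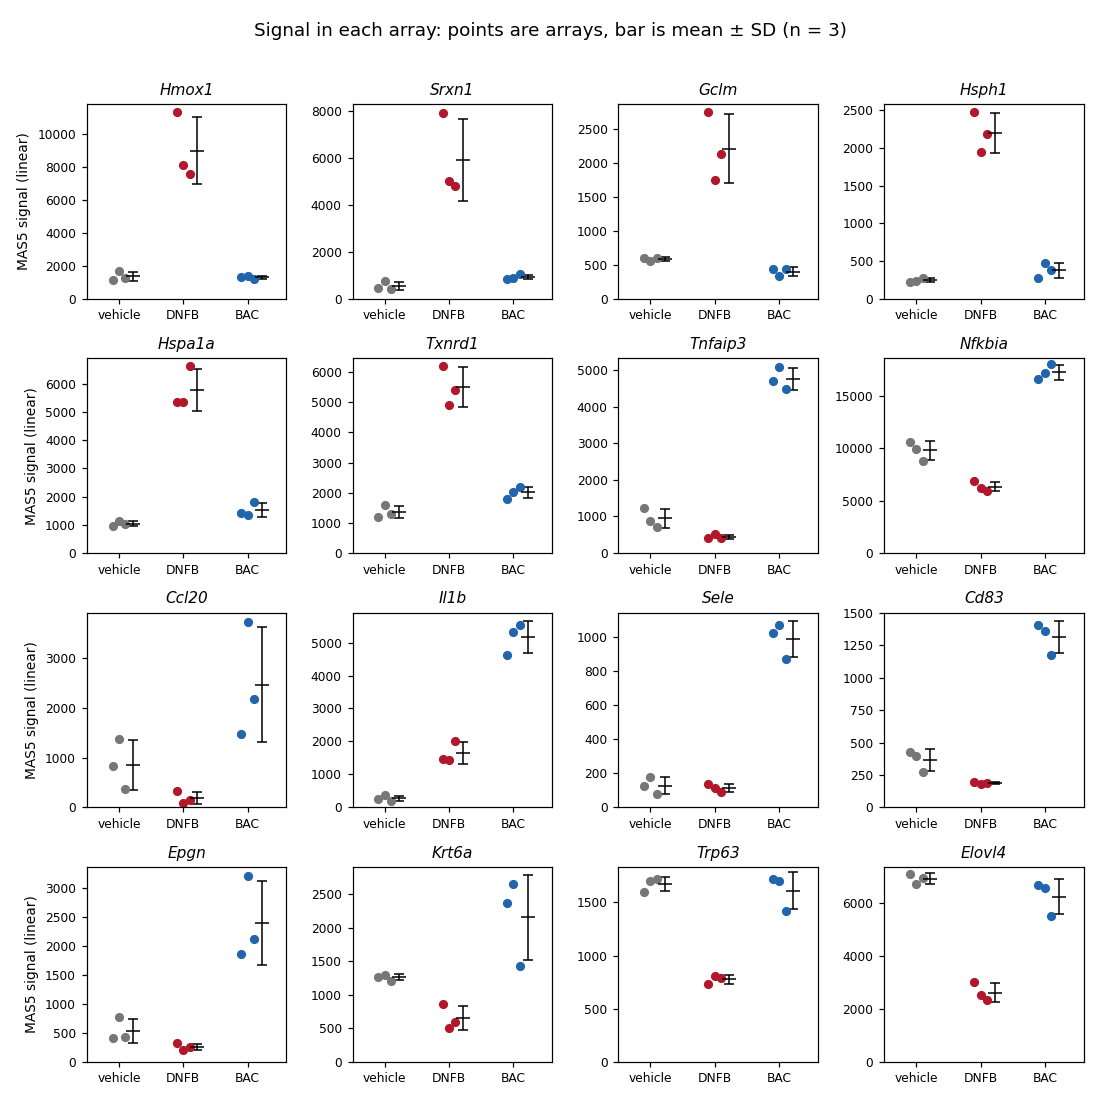
MAS5 signal (linear scale, axes from 0) of 16 genes in each vehicle, DNFB and BAC array, 1 point per array, with the mean and SD of a group beside it (n = 3). Hmox1, Srxn1, Gclm, Hsph1, Hspa1a and Txnrd1 are highest in the 3 DNFB arrays, Tnfaip3, Nfkbia, Ccl20, Il1b, Sele, Cd83, Epgn and Krt6a are highest in the 3 BAC arrays, and for Trp63 and Elovl4 the DNFB arrays lie below both other groups.

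Several inhibitors and subunits of NF-kB were higher in BAC. Of 19 tested genes of this group, 10 were higher in BAC and 0 in DNFB by limma (14 and 0 at an unadjusted p under 0.05), with a median log2 difference of -0.67, against 3.66% of all genes higher in BAC. Tnfaip3 (A20), a ubiquitin-editing enzyme that ends NF-kB signalling, had the smallest p of the comparison, with 409, 512 and 399 in DNFB and 4697, 5095 and 4483 in BAC. Its mean was 10.8-fold higher in BAC, a log2 difference of -3.39 ± 0.16 (adjusted p = 2.27e-08), and its other probe set differed by -3.22. The vehicle arrays (1245, 882 and 720) lay above every DNFB array and below every BAC array. Nfkbia (IkB-alpha), which holds NF-kB in the cytoplasm, had 6824, 6180 and 5951 in DNFB, 16551, 17195 and 17960 in BAC, and 10617, 9932 and 8762 in vehicle. The log2 difference was -1.45 ± 0.1 (adjusted p = 5.24e-07), the gene's 5 probe sets gave -1.26 to -2.32, and the DNFB arrays again lay below every vehicle array.

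Among the NF-kB subunits, Rel had 160, 118 and 134 in DNFB and 425, 620 and 637 in BAC, a log2 difference of -1.90 ± 0.21 (adjusted p = 5e-05). Relb differed by -1.27 ± 0.15 (adjusted p = 7.65e-05), with 168, 164 and 179 against 393, 468 and 436. Rela did not pass at -0.36 (adjusted p = 0.0938). Birc3, a ubiquitin ligase of the TNF receptor complex, differed by -1.76 ± 0.13 (adjusted p = 8.88e-07), the nuclear IkB protein gene Bcl3 by -1.56 ± 0.28 (adjusted p = 0.00316), and the A20 partner Tnip1 by -1.05 (adjusted p = 8.59e-05). For Rel, Bcl3 and Birc3 the BAC arrays lay above all vehicle arrays, and the DNFB arrays of Birc3 (471, 561 and 568) overlapped vehicle (489, 462 and 401). Over the alternatives, 7 to 11 of the 19 were higher in BAC.

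The promoters of Tnfaip3, Nfkbia, Ccl20, Cxcl2 and Cxcl3 are shown because they belong to genes that differed and hold the NF-kB consensus, marked by capitals, within 150 printed bases (RefSeq, GRCm38.p6). The Cxcl2 and Cxcl3 runs each hold overlapping matches on both strands, and the Tnfaip3 run holds 2 separate ones:
Tnfaip3, chr10:19015411-19015560, minus strand: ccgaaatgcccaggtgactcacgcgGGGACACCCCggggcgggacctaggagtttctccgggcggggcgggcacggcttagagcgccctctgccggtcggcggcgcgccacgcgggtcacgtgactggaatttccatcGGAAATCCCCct
Nfkbia, chr12:55492648-55492797, minus strand: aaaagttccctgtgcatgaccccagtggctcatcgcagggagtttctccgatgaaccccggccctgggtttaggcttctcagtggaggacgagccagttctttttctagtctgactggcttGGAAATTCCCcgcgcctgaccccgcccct
Ccl20, chr1:83116616-83116765, plus strand: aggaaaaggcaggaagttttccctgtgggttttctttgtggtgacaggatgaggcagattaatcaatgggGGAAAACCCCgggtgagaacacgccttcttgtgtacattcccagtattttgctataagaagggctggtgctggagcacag
Cxcl2, chr5:90903749-90903898, plus strand: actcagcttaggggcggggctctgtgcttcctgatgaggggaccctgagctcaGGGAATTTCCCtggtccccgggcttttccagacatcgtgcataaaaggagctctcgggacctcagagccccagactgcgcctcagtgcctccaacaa
Cxcl3, chr5:90785951-90786100, plus strand: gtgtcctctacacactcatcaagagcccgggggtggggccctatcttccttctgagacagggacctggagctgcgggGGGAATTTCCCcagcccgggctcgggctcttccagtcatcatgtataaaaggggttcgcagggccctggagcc
The consensus, searched on both strands in the 250 bases before the start, occurred in 8.23% of all promoters, in 10.7% of tested genes, in 38 of 367 genes higher in DNFB (10.4%) and in 65 of 405 genes higher in BAC (16%). It occurred in 9 of 17 NF-kB genes with an entry (52.9%) and in 7 of the 9 that passed (77.8%), and in 6 of 17 chemokines (35.3%), all of them among the 9 that passed (66.7%). Of 7 adhesion genes with an entry, 1 held it, and 0 of the 3 that passed did. The promoters of Sele, Icam1 and Birc3, genes higher in BAC, held no match in these bases. A promoter entry was found for 772 of the 961 genes that passed.

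Chemokines held the largest share of genes higher in BAC of any list drawn. Of 24 tested, 14 were higher in BAC and 0 in DNFB by limma (17 and 0 at an unadjusted p under 0.05), the median log2 difference was -0.91, and 11 to 15 passed over the alternatives. Ccl20, which attracts CCR6-bearing dendritic cells and T cells, had 323, 96.4 and 147 in DNFB and 1485, 3738 and 2172 in BAC, a 13.1-fold higher mean in BAC and a log2 difference of -3.65 ± 0.43 (adjusted p = 8.13e-05). The vehicle arrays of 836, 1377 and 363 lay above every DNFB array. The eosinophil attractant Ccl11 (eotaxin) had 208, 328 and 282 in DNFB and 971, 1559 and 1400 in BAC (-2.19 ± 0.21, adjusted p = 9.32e-06), with vehicle at 152, 245 and 195 close to DNFB.

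The monocyte attractants Ccl2 and Ccl7 were present in both treatments and higher in BAC. Ccl2 had 1643, 1282 and 1106 in DNFB, 3309, 4728 and 5563 in BAC, and 627, 524 and 335 in vehicle, a log2 difference of -1.73 ± 0.22 (adjusted p = 0.000131). Ccl7 had 1190, 929 and 606 in DNFB and 2766, 4690 and 4782 in BAC (-2.16 ± 0.27, adjusted p = 0.000134). Both DNFB and BAC arrays exceeded vehicle for these genes. The neutrophil attractant Cxcl3 had 55.6, 57.6 and 75.5 in DNFB and 267, 468 and 354 in BAC (-2.24 ± 0.29, adjusted p = 0.000196).

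Cxcl2, another ligand of CXCR2, had 1038, 1260 and 1486 in DNFB and 3235, 4271 and 3669 in BAC (-1.56 ± 0.34, adjusted p = 0.013), and its call ended without BAC replicate 2 (adjusted p = 0.058). Cxcl1, of the same family, differed less, with 3741, 3261 and 2598 against 5721, 6391 and 6413 and vehicle arrays of 653, 888 and 319. Its log2 difference was -0.96 ± 0.25 (adjusted p = 0.0317), its 3 probe sets gave -0.83 to -0.96, and its call ended without DNFB replicate 2 (0.0806), DNFB replicate 3 (0.13), BAC replicate 1 (0.0587), BAC replicate 2 (0.0992) or BAC replicate 3 (0.0907). The interferon-induced Cxcl10 differed by -2.10 ± 0.36 (adjusted p = 0.00209), with 112, 54.6 and 78.6 against 295, 549 and 367. The T cell attractant Ccl17 differed by -1.84 ± 0.24 and the macrophage inflammatory protein gene Ccl3 by -1.91 ± 0.27. Among listed chemokines, Ccl1, Ccl5, Cxcl9, Cxcl11, Cxcl15 and Xcl1 lay under the filter.

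**Figure D3:**
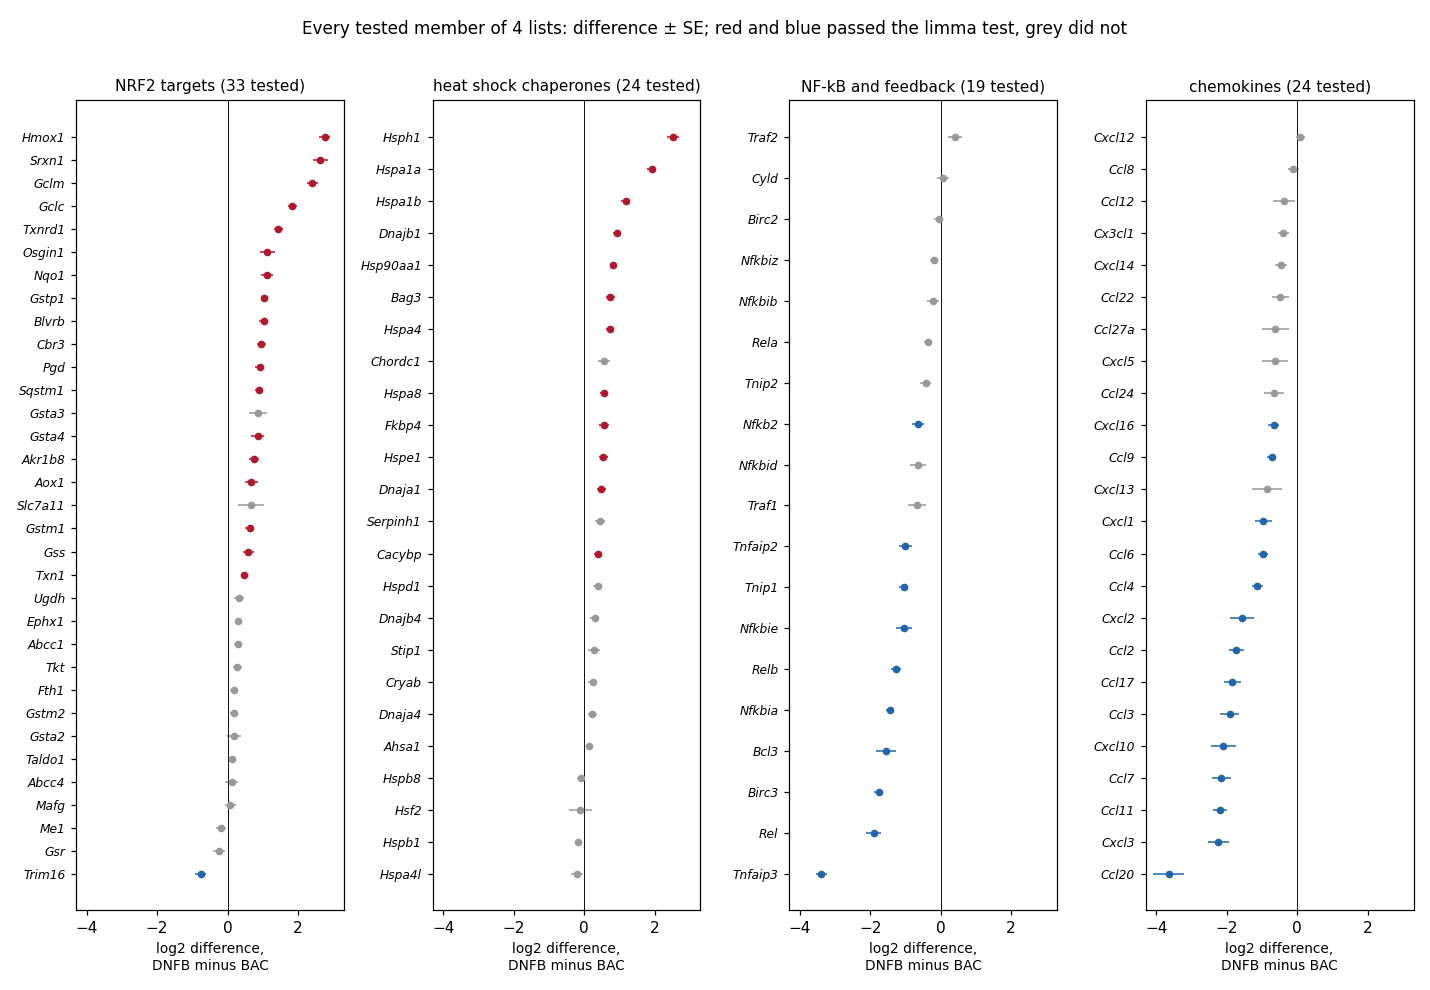
Log2 difference, DNFB minus BAC, with its SE (horizontal axis, log2 units) for each tested member of 4 lists: 33 NRF2 targets and glutathione genes, 24 heat shock chaperones, 19 NF-kB genes and 24 chemokines. Red points passed the limma test as higher in DNFB and blue as higher in BAC, grey did not pass; in the first panels the red points lie to the right and Trim16 (-0.76) is the blue one, and in the others the 10 and 14 genes that passed lie to the left.

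Cytokine genes higher in BAC were few but included main mediators. Of 27 tested, 5 were higher in BAC and 0 in DNFB by limma (9 and 0 at an unadjusted p under 0.05), with a median of -0.23, and Csf2, Il12a, Il23a, Ifng, Il13, Lta and Tnfsf11 lay under the filter. Il1b, the secreted interleukin-1 of the inflammasome pathway, had 1468, 1451 and 2028 in DNFB, 4630, 5332 and 5532 in BAC, and 264, 368 and 207 in vehicle. Il6, the inducer of the acute phase response, had 2842, 2058 and 1753 in DNFB, 4834, 5498 and 5488 in BAC, and 157, 133 and 70.5 in vehicle. The differences were -1.65 ± 0.18 for Il1b (adjusted p = 2.81e-05) and -1.27 ± 0.21 for Il6 (adjusted p = 0.00191), and in both genes every DNFB array lay between the vehicle and BAC arrays. Csf3 (G-CSF), which drives neutrophil production, had 60.4, 72.2 and 54.3 in DNFB and 356, 377 and 271 in BAC (-2.16 ± 0.35, adjusted p = 0.00142). The IL-6 family cytokine Osm differed by -1.71 ± 0.19 (adjusted p = 5e-05).

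Tnf was near the low end of the signal range, with 19.7, 15.6 and 48.5 in DNFB and 108, 56.6 and 178 in BAC, and its difference of -1.53 ± 0.48 did not pass (adjusted p = 0.0684). It did without vehicle replicate 3 (0.0434) and with the replicate number as a block over the 6 arrays (0.0478). Il1a differed by -1.32 ± 0.4 without passing (adjusted p = 0.0642). Over the alternatives, 4 to 7 cytokine genes were higher in BAC. Of 27 interferon-stimulated genes, 2 were higher in BAC, among them the transcription factor Irf1 (-1.13, adjusted p = 2.38e-05), and that count was 1 without any single one of DNFB replicates 2 and 3, BAC replicates 2 and 3 and vehicle replicate 1.

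Some adhesion molecules of activated endothelium were higher in BAC too. Of 15 tested leukocyte adhesion genes, 5 were higher in BAC and 0 in DNFB by limma (8 and 0 at an unadjusted p under 0.05), with a median of -0.65 and 4 to 6 higher in BAC over the alternatives. Sele (E-selectin), made by activated endothelium, had 139, 116 and 93.2 in DNFB and 1025, 1073 and 872 in BAC, an 8.51-fold higher mean and a log2 difference of -2.94 ± 0.23 (adjusted p = 1.27e-06). The DNFB arrays overlapped the vehicle arrays (128, 177 and 78.5). Selp (P-selectin) differed by -1.62 ± 0.2 (adjusted p = 0.000112), with 178, 229 and 249 against 608, 701 and 797. Icam1, the ligand of leukocyte integrins, had 674, 737 and 816 against 1905, 2354 and 2038 (-1.48 ± 0.15, adjusted p = 2.43e-05). Vcam1 did not pass (-0.58 ± 0.28, adjusted p = 0.249). The leukocyte genes Selplg (-0.93) and Itgb2 (-0.69), which encode partners of these molecules, were higher in BAC.

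Immediate early genes split by member. Of 34 AP-1 and immediate early genes, 10 were higher in BAC and 3 in DNFB (1 to 4 over the alternatives), with a median of -0.35, and 6 (without the intensity trend) to 11 were higher in BAC over the alternatives. Arc, an early gene known from neurons and also expressed in migrating dendritic cells, had 177, 167 and 199 in DNFB and 807, 1207 and 1063 in BAC, a log2 difference of -2.39 ± 0.16 (adjusted p = 4.24e-07), with the DNFB arrays within or just below the vehicle arrays of 223, 197 and 186. The transcription factor Egr3 differed by -1.37 ± 0.11 (adjusted p = 3.01e-06), Srf, the serum response factor, by -1.25 ± 0.15 (adjusted p = 7.39e-05), and Jun, an AP-1 subunit, by -0.90 ± 0.13 (adjusted p = 0.000485). With the mean over all probe sets of a gene, Egr3 (-0.96, adjusted p = 0.0529) and Jun (-0.41, adjusted p = 0.0908) did not pass. The DNFB arrays of Egr3 (551, 661 and 642) lay below its vehicle arrays (1103, 1155 and 1172). The AP-1 subunit Fos differed by -0.23 ± 0.16 (adjusted p = 0.447) and Egr1 by 0.06 ± 0.12 (adjusted p = 0.834), and in both genes the lowest DNFB or BAC array exceeded the highest vehicle array.

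Some feedback inhibitors of MAP kinase and receptor signalling were higher in BAC, and most did not pass. Of 16 MAP kinase phosphatases and Sprouty genes, 6 were higher in BAC and 0 in DNFB by limma (8 and 0 at an unadjusted p under 0.05), with a median of -0.41 and 4 to 7 higher in BAC over the alternatives. Dusp6, which removes phosphate from ERK, had 676, 612 and 633 in DNFB and 1590, 1760 and 1776 in BAC (-1.39 ± 0.13, adjusted p = 9.32e-06), against vehicle at 964, 884 and 670. The ERK phosphatase gene Dusp5 differed by -1.37 ± 0.15 (adjusted p = 5e-05) and the receptor signalling inhibitor gene Spry1 by -1.27 ± 0.12 (adjusted p = 8.98e-06). Of 11 genes of EGF receptor ligands and feedback, 3 were higher in BAC. Epgn (epigen), a ligand, had 317, 207 and 257 in DNFB and 1859, 3212 and 2117 in BAC, a 9.21-fold higher mean and a log2 difference of -3.11 ± 0.24 (adjusted p = 1.27e-06).

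Ereg (epiregulin), another EGF receptor ligand, had 805, 579 and 710 in DNFB, 2193, 3319 and 2632 in BAC, and 2562, 2895 and 2581 in vehicle. Its difference was -1.93 ± 0.15 (adjusted p = 1.27e-06), and the BAC arrays overlapped vehicle while the DNFB arrays lay below both. Errfi1, a receptor inhibitor, differed by -0.66 (adjusted p = 0.00252), and the ligand Hbegf did not pass (-0.25 ± 0.16, adjusted p = 0.414). Of 18 SOCS and cytokine signalling genes, 7 were higher in BAC with a median of -0.47, and the count was 3 without BAC replicate 2 4 without DNFB replicate 3 or BAC replicate 3, and 2 with arrays centred on their medians. The STAT5 target and inhibitor Cish (-1.24 ± 0.17, adjusted p = 0.000358) and the interleukin-4 receptor gene Il4ra (-1.20 ± 0.18, adjusted p = 0.000737) were among those that kept their call with any 1 array left out, and Il4ra differed by -0.73 (adjusted p = 0.0185) with the mean over its probe sets. Socs3 did not pass with all arrays (-0.61, adjusted p = 0.0942). It passed without vehicle replicate 2 (0.015) or vehicle replicate 3 (0.0208), over only the 6 DNFB and BAC arrays (0.00396, and 0.00334 with the replicate number as a block), and with the mean over its probe sets (-0.86, adjusted p = 0.00396).

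Pattern receptors and cell death genes gave smaller counts. Of 16 Toll-like receptors and co-receptors, 4 were higher in BAC, 2 without BAC replicate 2 and 1 without the intensity trend. Tlr2, a receptor for bacterial lipopeptides, had 166, 174 and 200 in DNFB and 408, 559 and 430 in BAC (-1.29 ± 0.16, adjusted p = 0.000153), and its adaptor Myd88 differed by -0.66 (adjusted p = 0.00616). Of 15 inflammasome and cell death genes, 4 were higher in BAC, and 2 without DNFB replicate 2, DNFB replicate 3 or BAC replicate 2. The sensor gene Nlrp3 had 188, 202 and 193 in DNFB and 338, 344 and 366 in BAC (-0.80 ± 0.17, adjusted p = 0.00938), and the caspase gene Casp4 differed by -1.02 ± 0.21 (adjusted p = 0.00897).

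In the epidermis, some late differentiation genes were higher in BAC and more did not pass. Of 36 cornified envelope and barrier genes, 15 were higher in BAC and 0 in DNFB by limma (16 and 1 at an unadjusted p under 0.05), with a median of -0.29, 9 were without BAC replicate 2, and 6 were without the intensity trend. Of the 15, 10 were late cornified envelope genes of the Lce1 cluster, with differences of -0.56 to -1.0. Lce1m had 2345, 1786 and 2581 in DNFB, 3827, 5186 and 4368 in BAC, and 5843, 5783 and 7112 in vehicle, a difference of -1.0 ± 0.14 (adjusted p = 0.000485). The vehicle arrays were the highest for it, so that the genes higher in BAC here need not exceed vehicle. Lce1 genes are near-identical, and the probe sets of Lce1m, Lce1h and Lce1d can hybridise to related transcripts, so which members differed is uncertain. The major envelope genes Lor (-0.03), Ivl (0.01) and Flg (0.55) did not pass.

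The stress keratins Krt6a and Krt17 were higher in BAC, and Krt16 did not pass (-0.66). Krt6a, a keratin of wounded epidermis, had 864, 510 and 587 in DNFB, 2369, 2656 and 1436 in BAC, and 1265, 1302 and 1212 in vehicle, a log2 difference of -1.68 ± 0.2 (adjusted p = 0.0001). Krt17, another stress keratin, had 422, 348 and 424 in DNFB, 1313, 1788 and 1061 in BAC, and 1071, 1074 and 1039 in vehicle (-1.73 ± 0.16, adjusted p = 7e-06), and -1.14 with the mean over its probe sets (adjusted p = 0.0347). In both genes every DNFB array lay below every vehicle array. Of 24 genes of activated and wounded keratinocytes, 6 were higher in BAC and 0 in DNFB by limma (8 and 1 at an unadjusted p under 0.05), with a median of -0.28, among them the protease inhibitor gene Serpinb2 (-1.30, adjusted p = 7.09e-06).

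Of 12 basal keratinocyte markers, 3 were higher in BAC, and 1 without DNFB replicate 2, BAC replicate 1 or BAC replicate 2. Trp63 (p63), the transcription factor of stratified epithelium, had 730, 807 and 788 in DNFB, 1715, 1703 and 1415 in BAC, and 1600, 1705 and 1722 in vehicle. Its difference was -1.04 ± 0.11 (adjusted p = 2.68e-05), and the BAC and vehicle arrays overlapped while the DNFB arrays lay below both. Keratins of the basal and suprabasal layers, Krt5 (-0.21), Krt1 (-0.26) and Krt10 (0.12), did not pass. The basal keratin Krt14 was higher in BAC (-0.37 ± 0.1, adjusted p = 0.0364), and its call ended without DNFB replicate 2 (0.149), DNFB replicate 3 (0.0771), any single BAC array (0.0666 to 0.123) or vehicle replicate 1 (0.0604). It also ended with no filter (0.0932), with arrays centred on their medians (0.221) and with the replicate number as a block (0.0693). The 2 other probe sets of Krt14 gave -1.90 (adjusted p = 3.02e-05) and -0.55 (adjusted p = 0.00986), and the mean over all 3 gave -0.94 (adjusted p = 0.000112).

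Of 32 fatty acid, ceramide and sebaceous lipid genes, 5 were higher in BAC (3 without BAC replicate 2 and 3 to 7 over the alternatives) and 0 in DNFB by limma, with 11 and 3 at an unadjusted p under 0.05. Elovl4, which makes the ultra-long acyl chains of epidermal ceramides, had 2997, 2506 and 2337 in DNFB, 6663, 6557 and 5488 in BAC, and 7106, 6693 and 6923 in vehicle (-1.25 ± 0.11, adjusted p = 5.87e-06). Its relatives Elovl7 (-0.94 ± 0.14, adjusted p = 0.000508) and Elovl5 (-0.91, adjusted p = 5e-05) were higher in BAC too. The 5 other probe sets of Elovl7 (-0.21 to -0.77) did not pass, and the mean over its probe sets gave -0.5 (adjusted p = 0.0461). Of 25 junction genes, 4 were higher in BAC and 1 in DNFB, and 2 were higher in BAC without BAC replicate 1 or BAC replicate 2. The tight junction genes Cldn4 (-1.19 ± 0.16, adjusted p = 0.000257), with 356, 220 and 268 against 701, 604 and 649, and Ocln (-0.80 ± 0.15, adjusted p = 0.00437) kept their call with any 1 array left out, while Ocln did not pass with the mean over its probe sets (-0.49, adjusted p = 0.0777).

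Some markers of resident and infiltrating cells differed as well. Of 19 tested neutrophil markers, 7 were higher in BAC and 0 in DNFB by limma (11 and 0 at an unadjusted p under 0.05), with a median of -0.69, 4 were without DNFB replicate 2, and 3 were without the intensity trend; Camp lay under the filter. The summed signal of the 19 ran from 16206 to 27044 in DNFB, from 28144 to 37859 in BAC and from 4702 to 10047 in vehicle, without overlap. Cxcr2, the receptor of the CXCL1 family (-1.29, adjusted p = 0.00586), Hdc, which makes histamine (-1.80 ± 0.25, adjusted p = 0.00038), and Lcn2 (-1.12 ± 0.23, adjusted p = 0.0085) were higher in BAC. The abundant neutrophil genes S100a8, with 4505, 5827 and 9429 in DNFB and 10349, 8444 and 12036 in BAC, and S100a9 did not pass with all arrays (-0.69 and -0.71, adjusted p = 0.408 and 0.446). S100a9 passed without vehicle replicate 2 (0.0464) and over only the 6 DNFB and BAC arrays (0.048), and with the replicate number as a block over those 6 arrays both passed (0.00703 for S100a8 and 0.0018 for S100a9). The part of these cells in the differences of Il1b, Csf3, Cxcl2, Cxcl3, Osm and Tlr2 was not tested.

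Of 18 Langerhans and dendritic cell markers, 3 were higher in BAC, with a median of -0.38, and the summed signal ran from 26645 to 28954 in DNFB and from 29926 to 37344 in BAC. Cd207 (langerin), a marker of Langerhans cells that is not exclusive to them, had 271, 164 and 198 in DNFB, 1093, 839 and 683 in BAC, and 489, 435 and 319 in vehicle, a log2 difference of -1.97 ± 0.21 (adjusted p = 2.53e-05). Cd83, a marker of mature dendritic cells, had 198, 184 and 192 in DNFB, 1410, 1361 and 1173 in BAC, and 430, 400 and 270 in vehicle, a 6.87-fold higher mean and a log2 difference of -2.68 ± 0.16 (adjusted p = 1.95e-07). In both genes the DNFB arrays lay below and the BAC arrays above every vehicle array. The class II genes H2-Aa (-0.20) and Cd74 (-0.05), also expressed by these cells, did not pass, and Ccr7 and Ly75 lay under the filter.

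Of 19 monocyte and macrophage markers, 4 were higher in BAC, 2 without DNFB replicate 1 or BAC replicate 1 and 1 without BAC replicate 2; their sum ran from 22761 to 24877 in DNFB and from 26142 to 26707 in BAC. Of 14 T and NK cell markers, the cytotoxic granule gene Gzmb (-1.58, adjusted p = 0.00135) and the interleukin-7 receptor gene Il7r (-1.70, adjusted p = 1.7e-05) were higher in BAC, while the sums overlapped (3248 to 4188 and 3385 to 4493) and Cd2, Cd4, Gzma and Ncr1 lay under the filter. Of 9 mast cell markers, the chymase gene Cma1 was higher in DNFB, with 1341, 2074 and 1678 against 1082, 1028 and 1010 (0.68 ± 0.14, adjusted p = 0.00692). The 2 higher in BAC were the tryptase gene Tpsab1 (-0.90, adjusted p = 0.0286) and Hdc, which neutrophils also express. The Tpsab1 call ended without any single one of the DNFB arrays, BAC replicate 2 or BAC replicate 3, which left a BAC count of 1. The DNFB count was 2 without DNFB replicate 1. The summed signals of the endothelial, fibroblast and skeletal muscle lists overlapped between DNFB and BAC. Of 16 endothelial markers, 1, Vwf, was higher in DNFB (0.74), and its call ended without DNFB replicate 2 (0.126), DNFB replicate 3 (0.0924) or BAC replicate 2 (0.127); the endothelial sum did not separate the groups for which Sele and Selp differed.

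**Figure D4:**
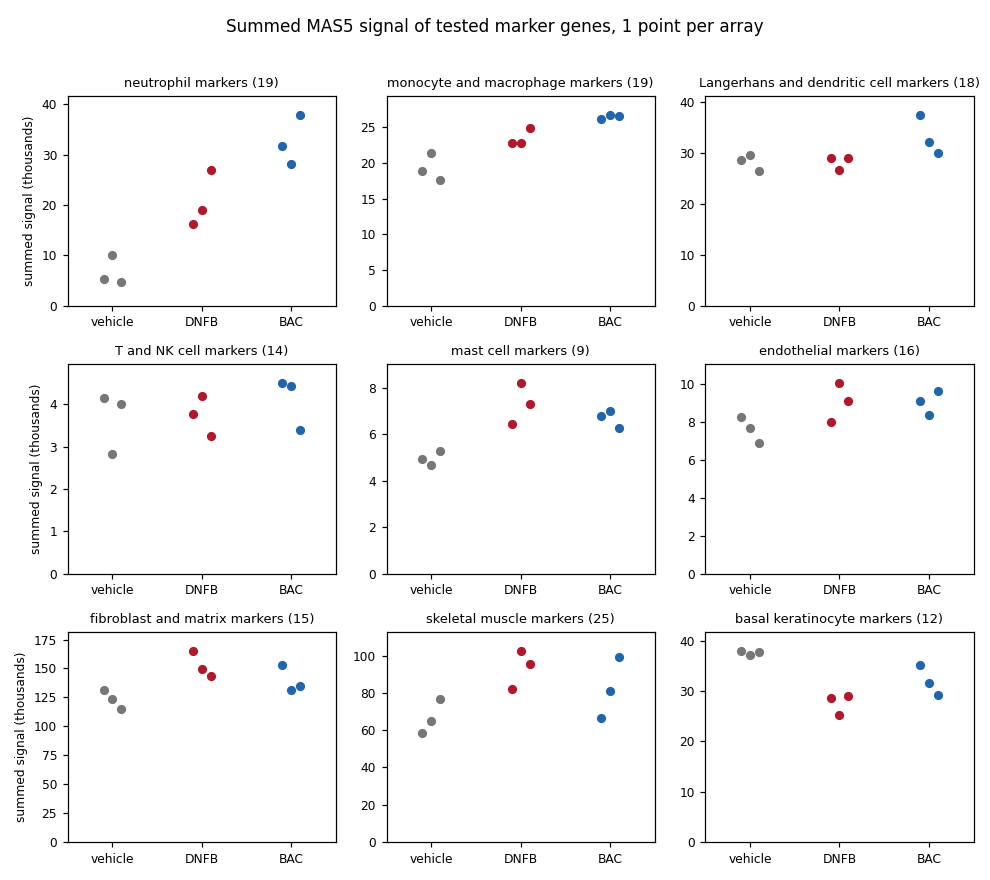
Summed MAS5 signal of the tested genes of 9 marker lists (vertical axes from 0, in the unit marked there) in each vehicle, DNFB and BAC array, 1 point per array, with the number of genes in brackets. The 3 BAC arrays lie above the 3 DNFB arrays for the neutrophil, monocyte and macrophage, Langerhans and dendritic cell, and basal keratinocyte lists, and the groups overlap for the other lists. For the basal keratinocyte list the lowest BAC sum (29322) lies just above the highest DNFB sum (29098), and the vehicle arrays (37263 to 37950) lie above both groups.

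Several lists held few or 0 genes past the adjusted threshold, although the proteasome, respiratory chain and tRNA synthetase lists leaned towards DNFB. Of 31 proteasome subunits, 2 were higher in DNFB, and 0 without DNFB replicate 3, BAC replicate 1 or BAC replicate 2, although 18 of the 31 had DNFB arrays all above the BAC arrays, against 13.7% of all genes, at a median of 0.16. At an unadjusted p under 0.05, 10 of the 31 were higher in DNFB and 0 in BAC, against 12% and 9.64% of all genes. Among 32 respiratory chain subunits, 19 cholesterol synthesis genes, 25 muscle markers, 18 hair follicle keratins, 9 adipocyte markers and 9 melanocyte markers, limma called 0 in either direction with all arrays. At an unadjusted p under 0.05, 10 respiratory chain, 1 cholesterol, 1 muscle and 1 hair keratin gene were higher in DNFB, 2 adipocyte genes were higher in DNFB and 1 in BAC, and 0 melanocyte genes passed. Without DNFB replicate 1, 3 respiratory chain genes were higher in DNFB, and without BAC replicate 2 the hair keratin Krt27 was (2.73, adjusted p = 0.016, from 1.80 and 0.136 with all arrays). Of 19 tRNA synthetases, 1 was higher in DNFB, Eprs (0.65, adjusted p = 0.00512), whose 3 other probe sets (0.18 to 0.7) and mean over all probe sets (0.44, adjusted p = 0.142) did not pass. At an unadjusted p under 0.05, 8 of the 19 synthetases were higher in DNFB and 0 in BAC, and the median of the 19 was 0.28.

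**Figure D5:**
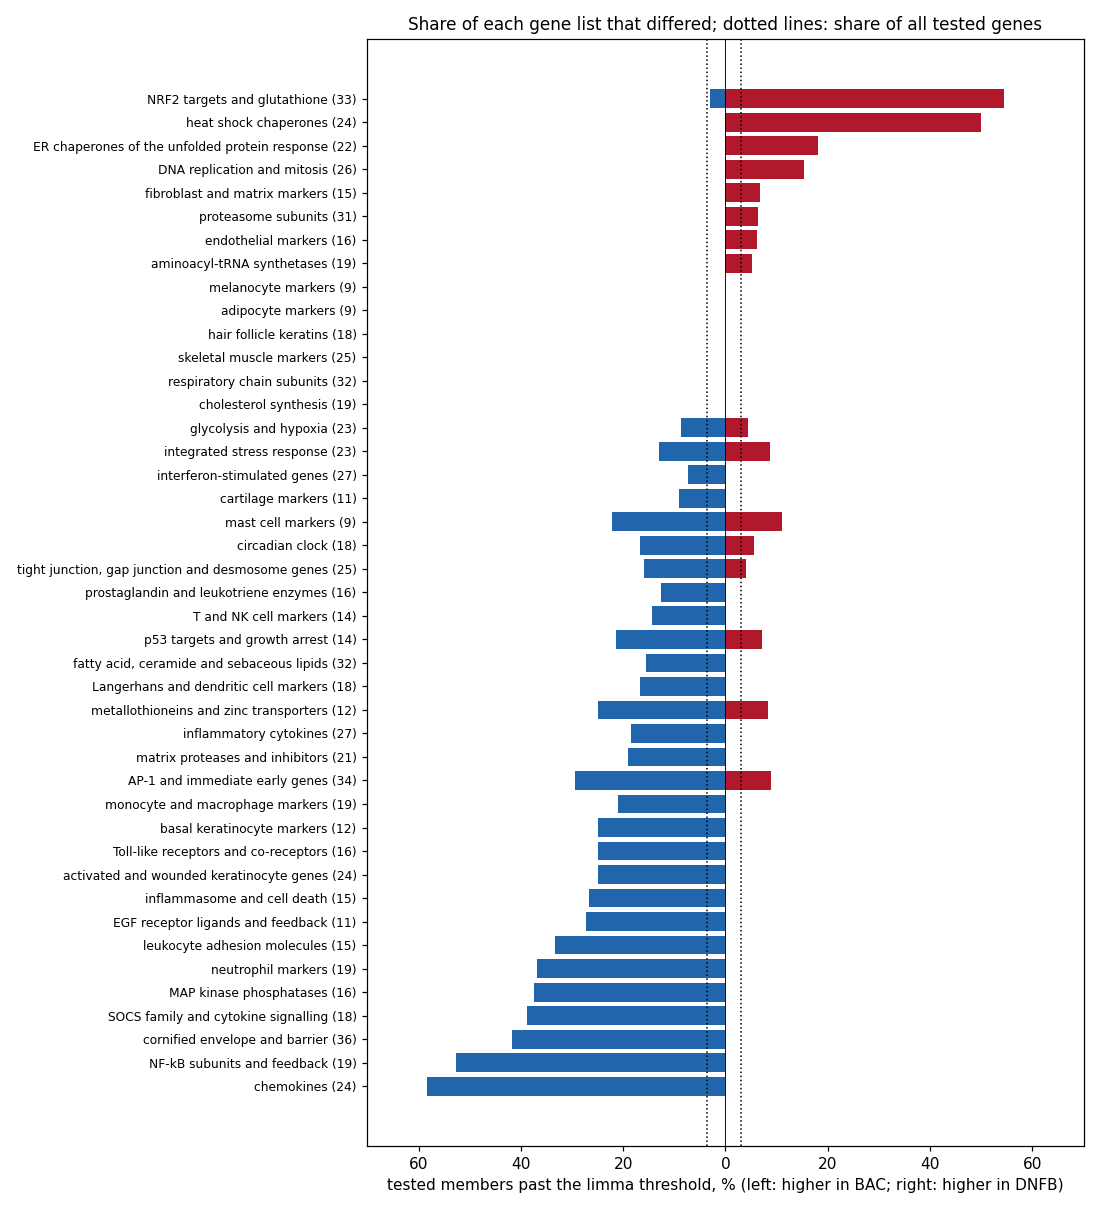
Share of the tested members of each list, in percent, that were higher in BAC (blue, to the left) or higher in DNFB (red, to the right) by limma at an adjusted p under 0.05, with the number tested in brackets; the red blood cell list, with 1 tested gene, is not drawn. Dotted lines mark the shares over all 14122 genes, 3.66% and 3.14%. The NRF2 and heat shock lists reach farthest to the right (18 of 33 and 12 of 24 genes), and the chemokine and NF-kB lists farthest to the left (14 of 24 and 10 of 19).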

How the data were processed

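Total RNA of mouse ear skin was hybridised to Affymetrix arrays. The authors deposited linear intensities, 1 MAS5 signal per probe set and array, made with the Affymetrix Expression Console per the submitters' processing notes. Their mean, trimmed by 2% at either end, was 250.001 in every array. Detection calls and scan dates were not used, and 9 arrays limit the precision. Signals were taken as log2(signal + 16) from the deposited intensities. Of 45101 probe sets, 64 were controls, 34945 had 1 gene symbol, 932 several and 9160 none listed. Gene names came from the platform annotation; RefSeq GRCm38.p6, which matched 34741 probe sets, changed 0 symbols. A gene was represented by its brightest probe set, judged by mean log2 value over 9 arrays (18193 genes, 9010 with several probe sets), and genes above the 40th percentile of an array in at least 3 of 9 arrays were tested.

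limma 3.58.1 in R 4.3.3 was fitted to all 9 arrays with 1 mean per treatment, an intensity trend and no block, so vehicle added only to the estimate of the spread (6 residual and 9.09 prior degrees of freedom). The contrast was DNFB minus BAC, two-sided, with Benjamini-Hochberg adjustment over all tested genes; ± is its SE unless SD is named. An exact permutation test of 3 against 3 arrays cannot go below p = 0.1 and was not used. The fit was tested on simulated data with independent noise for each gene. Variation that genes share within an array was not simulated. The labels do not say whether equal replicate numbers pair arrays. Deviations of DNFB and BAC arrays with the same number correlated at -0.044, -0.122 and 0.004, and those with different numbers at -0.075 to 0.119. Deviations from means of 3 arrays cannot decide whether arrays were paired, and pairs with vehicle arrays were not checked.

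Described by rule were the 15 largest differences in each direction with separate arrays and a mean above the median, up to 3 genes of each of 44 lists, and a set of genes fixed by name; further list members were named after their values were seen. Members and lists were chosen with earlier results of these data known, so list counts carry no test and are set beside the counts over all genes. Alternatives were the pseudocount, filter, normalization, probe set rule, trend, arrays in the fit, block and leaving out each array.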

Additional observations from a re-analysis of the deposited data

How the results depend on the processing

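No gene that passed with all arrays and also passed under an alternative changed direction in any alternative run gene by gene. The 961 genes became 402 (137 higher in DNFB, 265 in BAC) without the intensity trend in eBayes; the cause was not tested. Centring of the arrays on their medians left 318 genes higher in BAC, the median difference of all genes moved from 0.029 to 0.102, and 51% of the genes that passed were higher in DNFB, against 46.2%. The mean over all probe sets of a gene left 273 genes higher in DNFB, and log2(signal + 64) left 26 at least 2-fold higher in DNFB. Every probe set tested by itself, which tests more features, gave 798 higher in BAC and 391 at least 2-fold apart (97 higher in DNFB, 294 in BAC). With 1 array left out, 513 to 999 genes passed, 178 to 468 higher in DNFB and 303 to 531 in BAC, with 174 to 243 at least 2-fold apart (41 to 63 and 130 to 185). The replicate number as a block gave 860 genes, and 852 over the 6 arrays; these arrays without the block gave 881. The block was run although the labels do not say that the numbers pair the arrays. Under the mean over all probe sets, Sox9 turned from -0.67 to 0.16, Fkbp4 from 0.56 to -0.05 and Txn1 from 0.48 to -0.03, and none of the 3 passed. Of 4499 values of 225 genes under the alternatives, 4022 kept direction and call, 460 no longer passed, 14 newly passed and 3 turned. Low signals near the background of an array, such as those of Tnf and Csf3, were less certain than their linear values show, and 3 arrays per group set the precision.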

Other observations

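Some clock genes differed at this single time of 6 h, and most did not pass. Of 18 tested, 1 was higher in DNFB, 3 were higher in BAC and 14 did not pass, against 3.14% and 3.66% of all tested genes. The median of the 18 was -0.11. The activator Arntl (Bmal1) was higher in DNFB, with 713, 836 and 724 against 434, 314 and 465 in BAC and 587, 498 and 462 in vehicle (log2 difference 0.90 ± 0.15, adjusted p = 0.0023 by limma). Its second probe set gave 0.04 (adjusted p = 0.943) and the mean over both 0.47 (adjusted p = 0.0966), so that the Arntl call rests on 1 probe set. The repressors Cry2 (-1.05 ± 0.18, adjusted p = 0.00267) and Bhlhe40 (-0.91 ± 0.15, adjusted p = 0.00189) were higher in BAC. The Cry2 arrays were 429, 500 and 435 in DNFB and 1182, 809 and 911 in BAC, and the vehicle arrays (1033, 577 and 754) overlapped BAC. The time of day of each sampling is not given in the sources used here.

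Replication genes were higher in DNFB in 4 of 26 cases, the licensing factor Cdt1 (1.31) and the helicase subunit Mcm7 among them. Mcm7 had 685, 769 and 817 in DNFB, 411, 409 and 404 in BAC, and 700, 800 and 768 in vehicle (0.86 ± 0.12, adjusted p = 0.000291), so the BAC arrays stood below both other groups by this probe set. The gene's other probe sets (0.12 to 0.97) did not pass, and the mean over its probe sets gave 0.61 (adjusted p = 0.0391). All 3 GADD45 genes, which respond to growth arrest and damage, were higher in BAC: Gadd45a (-1.64 ± 0.3, adjusted p = 0.0038), Gadd45g (-0.99 ± 0.13, adjusted p = 0.000148) and Gadd45b (-0.67, adjusted p = 0.00409). They were the 3 of 14 p53 and growth arrest genes higher in BAC, against 3.66% of all tested genes. Another member, Sesn1, was higher in DNFB (0.64, adjusted p = 0.0322), and the median of the 14 was 0.14. The Sesn1 call ended without DNFB replicate 2 or 3, or BAC replicate 2 or 3, and with the mean over its probe sets (0.39, adjusted p = 0.189).

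The metallothioneins Mt1 (-0.73 ± 0.14, adjusted p = 0.00438) and Mt2 (-0.77 ± 0.12, adjusted p = 0.00145), which bind zinc and also respond to oxidative stress, were higher in BAC, opposite to most NRF2 targets, as was the zinc importer gene Slc39a14 (-0.93, adjusted p = 0.00268), which did not pass with the mean over its probe sets (-0.73, adjusted p = 0.0978). The Mt2 signals were 15358, 14430 and 13199 in DNFB and 23323, 24417 and 25256 in BAC. The probe set that stood for Mt1 can hybridise to related transcripts; its other probe set gave -2.86 (adjusted p = 1.41e-05) and the mean over both -1.79 (adjusted p = 0.000144).

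The prostaglandin E receptor gene Ptger4 was higher in BAC, with 324, 318 and 310 in DNFB, 880, 1178 and 913 in BAC, and 317, 335 and 269 in vehicle (-1.58 ± 0.14, adjusted p = 5.92e-06). The cyclooxygenase Ptgs2 did not pass by the probe set that stood for it (0.17 ± 0.22, adjusted p = 0.702), while its second probe set gave -0.94 (adjusted p = 0.033) and the mean over its probe sets -0.38 (adjusted p = 0.283). The aggrecan-cleaving protease Adamts4 had 415, 252 and 380 in DNFB, 1136, 1258 and 1651 in BAC, and 82.9, 85.2 and 77.5 in vehicle (-1.91 ± 0.19, adjusted p = 1.29e-05). It was 1 of 4 of 21 matrix protease genes higher in BAC. The acute phase gene Saa3 (-2.21 ± 0.24), the G protein regulator Rgs16 (-1.97 ± 0.27) and the ribonuclease gene Rnase2b (-2.08 ± 0.16) were higher in BAC too. Rnase2b had 297, 232 and 369 in DNFB, 1514, 1328 and 1079 in BAC, and 1415, 1225 and 1536 in vehicle, so that DNFB stood below both other groups.

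Of 23 glycolysis and hypoxia genes, 1, Tpi1 (0.42, adjusted p = 0.0366), was higher in DNFB and 2 in BAC. The BAC count was 0 without BAC replicate 2 and 1 without any other single DNFB or BAC array, and the DNFB count was 0 without DNFB replicate 1, DNFB replicate 3, any single BAC array or vehicle replicate 1. Of 15 fibroblast markers 1 was higher in DNFB, and 0 without any single DNFB replicate 1 or 2, any BAC array or vehicle replicate 1. Of 11 cartilage markers 1, Sox9, was higher in BAC (-0.67), and 0 without DNFB replicate 2, DNFB replicate 3 or BAC replicate 1. In 3 genes, Cdk13, Malat1 and Nup98, different probe sets passed in opposite directions. Of 4251 tested probe sets listed with no gene symbol, 49 were higher in DNFB and 100 in BAC (3.51%), against 5.14% of 25079 probe sets with 1 symbol.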
